A study of Mus musculus with 6 samples.

Results

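AP-1 is a family of dimeric transcription factors, and 10 of its genes were followed here through their open chromatin: Fos, Fosb, Fosl1 and Fosl2 of the FOS group, Jun, Junb and Jund of the JUN group, and Batf, Batf2 and Batf3 of the BATF group. All distinct ATAC-seq peaks that the deposited peak table assigns to these symbols were taken, which gave 111 of 92864 peaks and 10 of 18755 gene symbols. Jun had 31 peaks, Fos 25, Fosl2 and Batf 13 each, Batf3 10, Fosb 9, Junb 5, Jund and Batf2 2 each and Fosl1 1. The genes were chosen by family and by no cut on a measured value, though earlier results of these data were known.

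The libraries came from wild-type (WT) mouse brain tumours grown in the brain from the glioma line SB28, and each sorted population had 3 libraries. The gate for bone marrow derived macrophages (BMDM), which enter the tumour from the blood, asked for F4/80, CD11b and CD45 with high CD49d. The gate for microglia (MG), the macrophages native to brain tissue, asked for F4/80 and CD11b, little CD45 and little or no CD49d. LY6C was little or none and LY6G none in both. All 6 libraries are from tumour-bearing brain, with no treatment or altered gene named in the labels, and no library from a tumour-free brain was analysed here. The labels do not say whether libraries came from separate animals or from pools, so that the p-values reflect the spread among these 6 libraries alone, part of which may be technical. In sorted bulk cells, a smaller share of cells with an open site and a less open site in every cell cannot be told apart.

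FOS and JUN proteins hold a basic leucine zipper, through which they pair and bind DNA. Pairs of a FOS with a JUN protein, or of JUN proteins with each other, bind AP-1 sites in promoters and enhancers, while BATF proteins pair with JUN and bind jointly with IRF4 or IRF8 in lymphocytes and dendritic cells. Several of these genes are immediate-early genes, transcribed within minutes of a stimulus by way of MAP kinases, and in macrophages AP-1 binds many enhancers beside PU.1. ATAC-seq reports how often the Tn5 transposase cut a stretch of chromatin. It measures neither the transcripts of these genes nor the binding of their proteins.

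Reads in peaks numbered 7167211, 19727511 and 4910448 in BMDM 1, 2 and 3 and 19244734, 23601865 and 12531808 in MG 1, 2 and 3. Markers of the sorted cells followed the labels. Summed over 10 monocyte and macrophage markers, normalized counts were 4409 to 7268 in BMDM and 2894 to 3229 in MG, with 5 of 8 tested genes higher in BMDM and no peak at Chil3 or Fn1. Summed over 10 microglial markers, they were 4879 to 5842 in BMDM and 8432 to 11927 in MG, with 3 genes (Sall1, Olfml3 and Sparc) higher in MG. MG 1 stood apart from its group: over all peaks its log2 values correlated at 0.892 with MG 3 and 0.756 with MG 2, and at 0.839 to 0.860 with the BMDM libraries. MG 2 and 3 correlated at 0.935 with each other, and MG 2 at 0.694 to 0.787 with the BMDM libraries. The microglial sum was highest in MG 1, at 11927, beside 8432 and 8572 in MG 2 and 3. Sall1, P2ry12 and Cx3cr1 were among the genes highest in MG 1, while Tmem119, Olfml3 and Sparc were highest in MG 2. Leaving MG 1 out thus removes the library with the highest microglial sum. Results that rest on MG 1 are therefore given with and without it.

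The start of each gene is where the sequence and the data meet, and 4 of the upstream sequences are shown: those of Fos, Jun and Junb, which also have a broad peak at the gene's end, and that of Batf, the one start-site peak at which all BMDM libraries lay above all MG libraries. RefSeq (GRCm38.p6, the assembly of mm10) gave the 250 bases before the start for 8 of the 10 genes, without Fosl1 and Batf2. The sequences run 5′ to 3′ toward the start. Capitals mark TGACG in Fos, Junb and Batf, the core of the cAMP response element (CRE), and TGACATCA in Jun, a site that JUN and ATF2 pairs are known to bind.
Fos, chr12:85473640-85473889, + strand: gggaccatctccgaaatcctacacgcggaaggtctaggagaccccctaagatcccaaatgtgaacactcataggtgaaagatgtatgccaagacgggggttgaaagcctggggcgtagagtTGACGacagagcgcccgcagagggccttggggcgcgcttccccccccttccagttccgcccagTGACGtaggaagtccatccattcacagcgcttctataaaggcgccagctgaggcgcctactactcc
Jun, chr4:95052223-95052472, - strand: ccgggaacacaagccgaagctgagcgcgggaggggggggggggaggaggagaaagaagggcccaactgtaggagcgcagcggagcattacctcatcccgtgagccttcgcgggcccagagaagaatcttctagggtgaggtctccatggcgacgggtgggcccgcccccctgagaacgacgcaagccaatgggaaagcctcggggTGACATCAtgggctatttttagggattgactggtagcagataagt
Junb, chr8:84978749-84978998, - strand: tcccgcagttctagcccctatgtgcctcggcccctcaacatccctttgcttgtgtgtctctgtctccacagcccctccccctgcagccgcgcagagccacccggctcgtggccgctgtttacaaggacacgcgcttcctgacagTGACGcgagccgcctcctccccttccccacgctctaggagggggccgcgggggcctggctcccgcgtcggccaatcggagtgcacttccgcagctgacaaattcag
Batf, chr12:85686470-85686719, + strand: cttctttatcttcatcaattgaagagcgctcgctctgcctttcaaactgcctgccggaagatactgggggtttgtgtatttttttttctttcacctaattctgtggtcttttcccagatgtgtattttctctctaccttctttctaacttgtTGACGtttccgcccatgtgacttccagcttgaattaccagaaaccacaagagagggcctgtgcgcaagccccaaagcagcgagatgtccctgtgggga
An ATAC-seq peak covered the whole window of Fos, Jun and Batf and 209 of the 250 bases of Junb. The windows of Fosb, Fosl2 and Batf3, not shown, were also covered whole. No peak overlapped the window of Jund, so its sequence may not be that of the open start. Searched on both strands, the full AP-1 site TGANTCA was in 0 of the 8 windows, against 6.75% of 32851 mouse promoter windows of the same length. The full CRE TGACGTCA was also in 0 of 8, against 1.55%, and the CArG box, bound by serum response factor, in 0 of 8, against 1.47%. TGACATCA lay in 1 of 8, at 45 to 38 bases before the start of Jun, and in 2.93% of all windows. TGACG, which was searched after the full sites had been counted, lay in 4 of 8 and in 17.8% of all windows. It sits 129 and 66 bases before the start of Fos, counted to its first base, and 60, 106 and 98 bases before that of Fosb, Junb and Batf. These letters describe the windows and show no binding. Sites further than 250 bases before the start were not searched, so the counts of 0 do not cover the promoters beyond the windows.

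Counts below are normalized counts, reads in a peak divided by the authors' size factor for the library. Differences are log2, BMDM minus MG, relative to the median peak, gene or promoter tested, since the medians lay at -0.14, -0.27 and -0.31. Each p refers to the difference as it was without the shift and is adjusted over all peaks, genes or promoters of the table (Benjamini-Hochberg, limma), with a threshold of 0.05. Distances are those of the deposited table, in kilobases (kb) to the nearest annotated transcript start, with a minus sign upstream.

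Each of the 10 genes had at least 1 assigned peak in all 6 of the authors' peak lists, and most were strongly open at their start. The start-site peaks of Batf2 and Batf3 were in 5 of the 6 lists. For Batf2 the peak in all 6 lists lay at -6.3 kb. Per kb of peak width, the start-site peak of Junb held 2130 ± 988 normalized counts in BMDM and 2150 ± 761 in MG (± SD over 3 libraries). That of Jund held 1428 ± 660 in BMDM and 1694 ± 598 in MG, and lay 563 bases from the RefSeq start. Fos had 1076 ± 410 per kb in BMDM and 1449 ± 368 in MG, and Jun 1072 ± 426 in BMDM and 1331 ± 460 in MG. The next in order was Fosl2, with 864 ± 286 in BMDM and 994 ± 220 in MG, and Fosb with 684 ± 253 in BMDM and 949 ± 369 in MG. The remaining 4 start sites were less open: Fosl1 had 333 ± 82.0 per kb in BMDM and 303 ± 98.3 in MG, and Batf3 had 216 ± 43.4 in BMDM and 260 ± 60.7 in MG. Batf had 208 ± 44.8 in BMDM and 130 ± 21.2 in MG, and Batf2 had 142 ± 51.3 in BMDM and 158 ± 111 in MG. The mean ± SD ranges of neighbours in this order overlapped in both populations, except those of Fosb and Fosl1 in both and those of Batf3 and Batf in MG. Within a library, Junb was above Jund, Jun above Fosl2 and Fosb above Fosl1 in all 6. None of these 10 peaks passed the threshold between BMDM and MG (adjusted p 0.209 to 0.954).

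Summed over all peaks within 100 kb of the start, no AP-1 gene passed the threshold between BMDM and MG. Of the 10 genes, 0 were higher in BMDM, where 2.14% of all 18246 tested genes were, and 0 were higher in MG, where 3.51% were. None had an unadjusted limma p under 0.05, and voom called 0 as well. The differences lay between -0.26 and 0.52 with standard errors of 0.31 to 0.51, and the adjusted p between 0.508 and 0.976. Differences of this size were not detectable with these errors.

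In the FOS group, Fos, the founding immediate-early gene, held 12436, 9709 and 5562 normalized counts in BMDM and 15553, 9609 and 9401 in MG (relative difference -0.09 ± 0.51, SE). Fosb, an immediate-early gene studied most in neurons, held 10839, 6042 and 3962 in BMDM and 13761, 5503 and 6382 in MG (-0.03 ± 0.51). The highest library was number 1 in both populations and both genes, and the groups overlapped. Fosl1, whose product lacks the activation domain of FOS, had its single peak at the start, with 567, 571 and 357 counts in BMDM and 621, 351 and 385 in MG. Fosl2, a close relative of Fosl1, held 3942, 3792 and 2275 in BMDM and 4148, 2809 and 3079 in MG (0.24 ± 0.37).

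In the JUN group, Jun, the main substrate of the JNK kinases, held 6191, 4361 and 2719 normalized counts in BMDM and 9200, 4310 and 5575 in MG, the lowest relative difference of the 10 genes (-0.26 ± 0.44, SE; adjusted p = 0.508). Junb held 9665, 5853 and 4270 in BMDM and 10387, 4891 and 6404 in MG (0.13 ± 0.47). Jund, which many resting cells express, held 3257, 2036 and 1328 in BMDM and 3539, 1763 and 2296 in MG (0.04 ± 0.38). Groups overlapped for all 3 JUN genes. With cyclic loess in place of the authors' size factors, Fos (-0.52, adjusted p = 0.0445) and Jun (-0.57, adjusted p = 0.0410) were lower in BMDM.

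In the BATF group, Batf, which lacks an activation domain of its own, held 3362, 2958 and 1815 normalized counts in BMDM and 2951, 2136 and 2127 in MG (0.41 ± 0.35, SE). Batf3, needed in mice for the dendritic cells that cross-present antigen, held 3079, 2327 and 1696 in BMDM and 3496, 2264 and 2447 in MG (0.05 ± 0.35). Batf2, which interferons induce in macrophages, had its MG libraries in another order than the other genes, with MG 1 lowest. It had 502, 638 and 290 counts in BMDM and 198, 718 and 386 in MG (0.52 ± 0.40). Leaving MG 1 out turned the difference to -0.03.

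**Figure D1:**
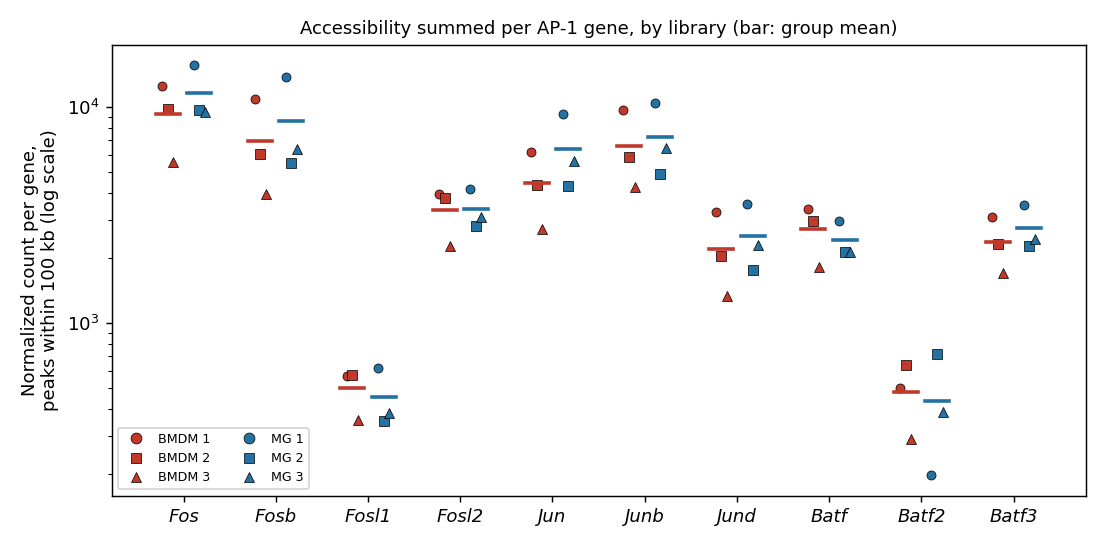
Normalized counts summed over all peaks within 100 kb of each AP-1 gene's start (y axis, log scale) by gene (x axis), with 1 point for each BMDM library (red, left) and MG library (blue, right) and a bar at the group mean. The groups overlap for all 10 genes, and Batf2 spreads most in MG, with 198 counts in MG 1 and 718 in MG 2.

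Promoters were summed separately, over peaks that the table classes as promoter. Of 10 promoters, 0 were higher in BMDM, where 2.75% of all 15249 promoters were, and 0 were higher in MG, where 9.16% were (limma; 1 promoter, Batf, had an unadjusted p under 0.05, and voom called 0). The Batf promoter held 288, 301 and 197 normalized counts in BMDM and 194, 145 and 150 in MG, and every BMDM library lay above every MG library, which 5.36% of all promoters showed. Its relative difference was 0.98 ± 0.33 (SE; adjusted p = 0.193). That value passed the threshold with library totals (adjusted p = 0.0454) and with cyclic loess (adjusted p = 0.0159) in place of the authors' size factors. Batf3 went the other way, with 480, 455 and 373 counts in BMDM and 554, 625 and 567 in MG, so that every MG library lay above every BMDM library, which 23% of all promoters showed (-0.11 ± 0.32, adjusted p = 0.469). The other 8 promoters had overlapping groups. Under cyclic loess the promoter sums of Fos (adjusted p = 0.00890) and Jun (adjusted p = 0.0165) were lower in BMDM.

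At single peaks, 7 of 108 tested AP-1 peaks were higher in BMDM (limma adjusted p under 0.05) and 0 were higher in MG. The shares over all 87944 tested peaks were 5.33% with BMDM higher and 1.54% with MG higher, so the share among AP-1 peaks was near that of the whole table. The count of 0 stands beside 3 AP-1 peaks with MG higher at an unadjusted p under 0.05, which 8429 of all 87944 tested peaks showed. All BMDM libraries lay above all MG libraries in 23 of 108 AP-1 peaks, against 17% of all peaks, and all MG libraries lay above all BMDM libraries in 2, against 12.9%. The 7 peaks belonged to Fosl2 (4), Fos, Jun and Batf (1 each), and 6 of them lay outside the promoter class. Without BMDM 1, BMDM 2 or MG 3, or with voom, 0 AP-1 peaks passed, as did 0 of all peaks in the table, while the 7 differences stayed between 1.52 and 2.92. Without BMDM 3 there were 3 AP-1 peaks higher in BMDM, beside 2.7% of all peaks, without MG 2 13, beside 9.33%, and without MG 1 15, beside 11.98%. The remaining 3 of the 111 peaks, all assigned to Jun, were below the minimum mean of 10 counts and were not tested.

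**Figure D2:**
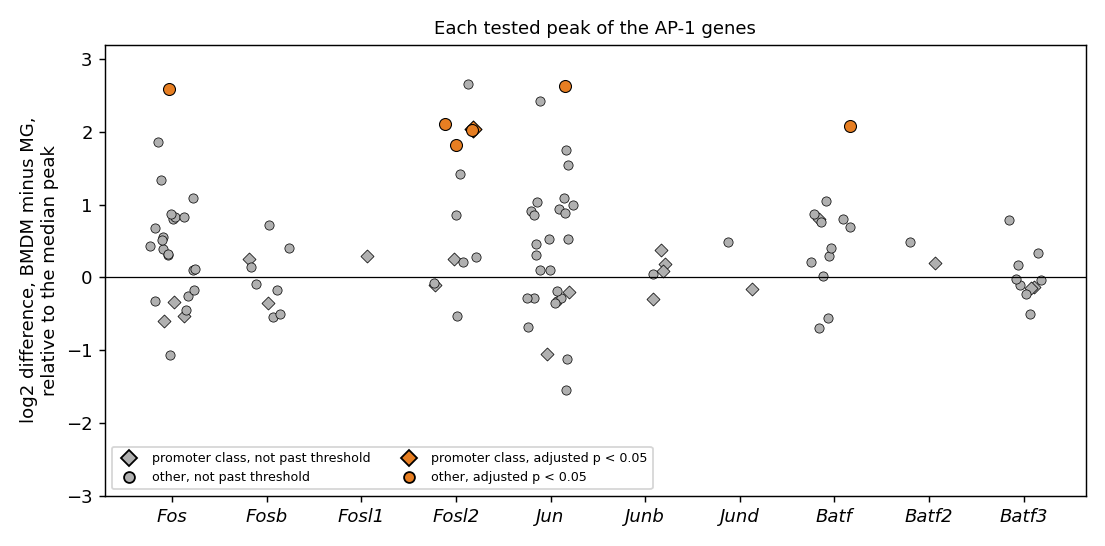
Log2 difference, BMDM minus MG, relative to the median peak (y axis) for each of the 108 tested peaks, by gene (x axis; diamonds are promoter-class peaks, circles all others, and points are spread sideways for view). The 7 orange points passed the threshold, and all lie between 1.81 and 2.63.

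The authors' deposited table, from their own comparison, lists 9 AP-1 peaks as higher in BMDM, where 9.06% of 92863 peaks were, and 2 as higher in MG, where 5.38% were. All 7 peaks above are among those 9. The other 2 were Fos +35.6 kb and Fosl2 +35.8 kb, and the 2 higher in MG were Fos +17.1 kb (log2 fold change -1.16, adjusted p = 0.0414 in the authors' deposited table) and Jun -85.3 kb (log2 fold change -2.10, adjusted p = 0.0291 in the authors' deposited table).

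Upstream of Fos, the peak at -26.3 kb (mm10 chr12:85446883-85447563, intergenic) held 180.5, 195.5 and 112.3 normalized counts in BMDM and 14.3, 35.0 and 43.7 in MG. The lowest BMDM library was above the highest MG library by more than the whole range of MG. Its relative difference was 2.59 ± 0.44 (SE; limma adjusted p = 0.0260), and without MG 1 it was 2.08. A pair of Fos peaks missed the threshold narrowly, in opposite directions. At +35.6 kb there were 93.2, 103.0 and 47.1 counts in BMDM and 11.1, 36.6 and 27.2 in MG (1.87, adjusted p = 0.0623). At +17.1 kb there were 39.7, 79.0 and 68.8 counts in BMDM and 122.2, 172.2 and 130.2 in MG (-1.07, adjusted p = 0.0656). Both have groups that do not overlap.

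Fos, Jdp2 and Batf lie in this order on chromosome 12 (Fos 85473890-85477274, Jdp2 85598656-85639878, Batf 85686720-85709087), and Jdp2 encodes another zipper protein that pairs with JUN. A peak between Jdp2 and Batf, 25.4 kb before the start of Batf (mm10 chr12:85660887-85661258), held 33.7, 77.1 and 61.6 normalized counts in BMDM and 7.93, 19.1 and 15.5 in MG. All BMDM libraries were above all MG libraries, with a relative difference of 2.08 ± 0.47 (SE; limma adjusted p = 0.0414). The call was lost with library totals (adjusted p = 0.0557) and with a mean of at least 30 (0.0582). In 5 of the 13 Batf peaks all BMDM libraries were above all MG libraries, beside 17% of all tested peaks. In 1 all MG libraries were higher, beside 12.9%. The table assigns a peak to the nearest start, which does not show the gene it acts on.

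Upstream of Jun, a peak at -37.4 kb (mm10 chr4:95089667-95090234) lay in an intron, within the span of Junos (95052317-95169036), a long noncoding RNA gene that starts beside Jun. It had 31.7, 63.5 and 38.0 normalized counts in BMDM and 6.35, 7.11 and 6.80 in MG, a relative difference of 2.63 ± 0.48 (SE; limma adjusted p = 0.0270). The MG libraries were nearly alike there and low, where the limit that 3 counts allow was 1.64 to 2.92 normalized counts in MG. Of 28 tested Jun peaks 8 had all BMDM libraries above all MG libraries and 0 had the opposite order. Over all tested peaks the shares were 17% and 12.9%. Of those 8 Jun peaks, the distal ones at -75.8 kb and -225.7 kb came near the threshold (adjusted p = 0.0779 and 0.0680). At -85.3 kb the counts were 15.9, 8.42 and 23.6 in BMDM and 15.9, 120.3 and 62.2 in MG (-1.55 ± 0.69, adjusted p = 0.160), with MG 1 among the BMDM libraries.

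**Figure D3:**
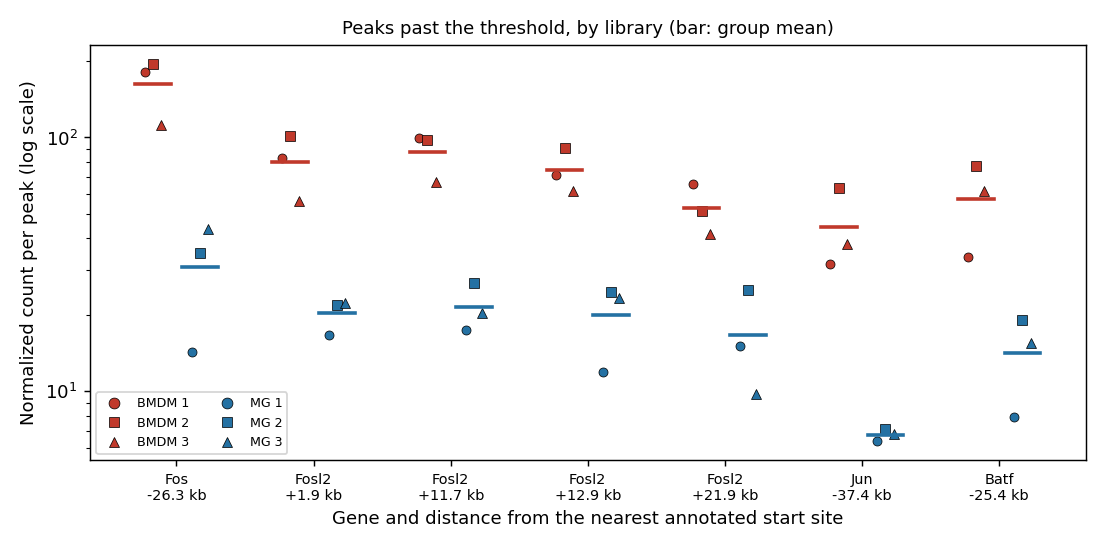
Normalized counts (y axis, log scale) at the 7 AP-1 peaks past the threshold (x axis: gene and distance from the nearest annotated start), with 1 point for each BMDM library (red, left) and MG library (blue, right) and a bar at the group mean. In each peak the 3 BMDM libraries lie above the 3 MG libraries, as at Fos -26.3 kb with 112.3 to 195.5 in BMDM and 14.3 to 43.7 in MG.

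Fosl2 held 4 of the 7 peaks, and they lay together in and behind the 3′ part of the gene (Fosl2 spans chr5:32136472-32157840). The peak at +11.7 kb (mm10 chr5:32158261-32158778), just behind the gene's end, held 99.2, 97.8 and 67.0 normalized counts in BMDM and 17.5, 26.8 and 20.4 in MG (relative difference 2.11 ± 0.35, SE; limma adjusted p = 0.0260). The peak at +12.9 kb (chr5:32159464-32160002) held 71.4, 90.7 and 61.6 in BMDM and 11.9, 24.6 and 23.3 in MG (2.03 ± 0.39, adjusted p = 0.0296). In both, the lowest BMDM library was more than 2-fold above the highest MG library. Inside the gene, near a second annotated start, the peak at +1.9 kb from that start (chr5:32148395-32148873) held 83.3, 101.0 and 56.2 in BMDM and 16.7, 21.9 and 22.4 in MG (2.04 ± 0.36, adjusted p = 0.0268). Further out, the peak at +21.9 kb (chr5:32168438-32168950) held 65.5, 51.2 and 41.7 in BMDM and 15.1, 25.1 and 9.72 in MG (1.81 ± 0.44, adjusted p = 0.0488). That call was lost with cyclic loess (adjusted p = 0.0587), with no filter (0.0522) and with a mean of at least 30 (0.0707).

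The neighbouring peaks in the 3′ untranslated region and at +35.8 kb had the same non-overlapping order without passing the threshold. The peak at +9.1 kb held 59.5, 40.1 and 65.2 normalized counts in BMDM and 17.5, 25.1 and 22.4 in MG (1.43, limma adjusted p = 0.0632), and that at +35.8 kb held 39.7, 24.0 and 10.9 in BMDM and 3.97, 3.28 and 1.94 in MG (2.66, adjusted p = 0.0725). The exception in the stretch was +14.2 kb, with 49.6, 22.7 and 38.0 in BMDM and 3.17, 60.7 and 39.8 in MG. There MG 2 and 3 were as high as the BMDM libraries.

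This stretch was summed after its values had been seen, so it is described and not tested. From 12.2 to 46.0 kb behind the RefSeq start, its 7 peaks together held 468, 427 and 341 normalized counts in BMDM and 85.7, 187 and 140 in MG. The start-site peak of the same gene held 2246, 2059 and 1127 in BMDM and 2599, 1716 and 1929 in MG. Expressed against the start-site peak, the downstream stretch came to 20.8%, 20.8% and 30.2% in BMDM and 3.30%, 10.9% and 7.25% in MG. The stretch holds 8.23% of the gene's counts and the start-site peak 58.2%, so the sum over the gene shows little of it.

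**Figure D4:**
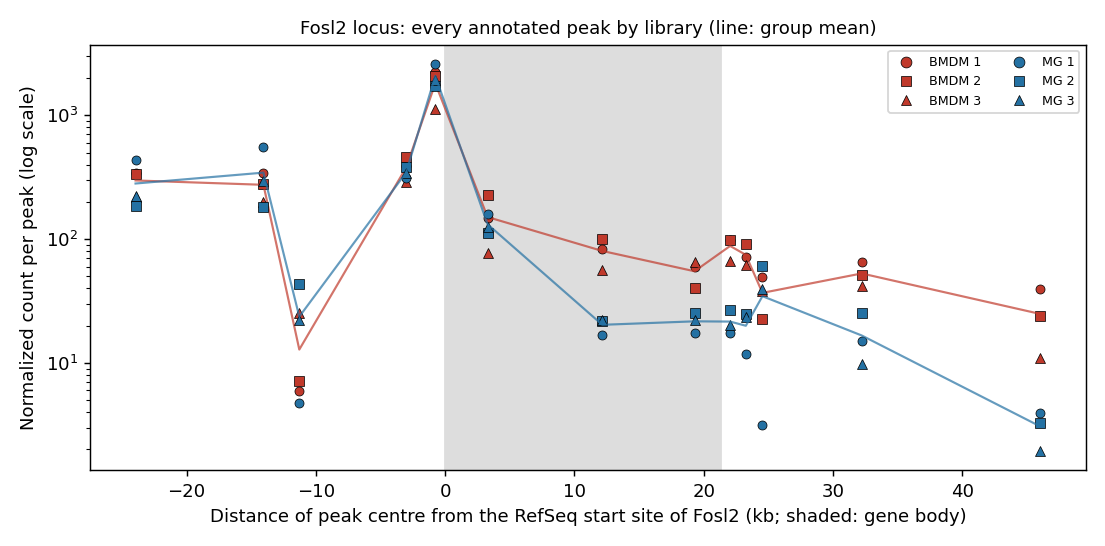
Normalized count (y axis, log scale) of all 13 Fosl2 peaks by distance of the peak centre from the RefSeq start (x axis, kb; grey marks the gene), with points for BMDM (red) and MG (blue) libraries and lines through the group means. The groups coincide at the start, with 1127 to 2246 counts in BMDM and 1716 to 2599 in MG, and part from 12.2 kb on, except at the peak where MG 2 reached 60.7 counts.

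Among the 20 promoter-class AP-1 peaks 1 was higher in BMDM (5%, beside 3.04% of all promoter-class peaks), and their median relative difference was -0.12, beside -0.14 over all promoter-class peaks. Among the 88 other tested AP-1 peaks 6 were higher in BMDM (6.82%, beside 6.36% of all other peaks), with a median of 0.40, beside 0.11 over all such peaks. By gene, the median over tested peaks was highest in Fosl2 (0.85) and Batf (0.70), intermediate in Fos (0.40) and Jun (0.38), and lowest in Fosb (-0.09) and Batf3 (-0.07). In Fosb, Junb, Jund, Fosl1 and Batf2 no peak had groups that did not overlap.

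The short genes Fos, Fosb, Jun and Junb have a second feature, a broad peak at the gene's end. It was noticed in the values and is described with no test. Within 500 bases of the RefSeq 3′ end, Fos had a peak of 3111 bases, Junb of 2726, Fosb of 2670 and Jun of 2435, against a median of 759 over the 1673 genes with a peak at both the start and the end. The end peak of Junb also covers the end of Prdx2 (84969622-84974811 on chromosome 8), and reads of the 2 genes cannot be separated there. The table classes the end peaks of Fos, Jun and Junb as promoter, by their distance to an annotated start, so they enter the promoter sums above.

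The end peak of Fos held 2688, 1197 and 900 normalized counts in BMDM and 4585, 1460 and 2017 in MG. That of Fosb held 3188, 1187 and 861 in BMDM and 4748, 1424 and 1840 in MG. That of Jun held 1603, 636 and 547 in BMDM and 3925, 929 and 1795 in MG. In all 3 genes the highest library was BMDM 1 among BMDM and MG 1 among MG, and the groups overlapped. Junb showed the same, with 3519, 2150 and 1634 in BMDM and 5085, 2103 and 2851 in MG.

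Set against the start-site peak of the same library, the end peak of Junb was 1.82, 2.00 and 2.02 times as high in BMDM and 2.85, 2.36 and 2.41 times in MG, so that every MG library lay above every BMDM library. Over the 1673 genes, 7.89% showed this order, and 18.3% showed the opposite one. For Jun the ratio was 0.437, 0.240 and 0.347 in BMDM and 0.868, 0.398 and 0.610 in MG, with MG 2 inside the range of BMDM. For Fos it was 1.68, 0.977 and 1.28 in BMDM and 2.24, 1.09 and 1.48 in MG, and for Fosb 3.53, 1.65 and 2.11 in BMDM and 3.50, 2.04 and 2.43 in MG. The groups overlapped for Fos, Fosb and Jun.

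The contrast of library 1 with the other libraries was large at these ends, but library 1 was often the highest elsewhere too. Of all 111 AP-1 peaks, 59 were highest in BMDM 1 among BMDM and 66 in MG 1 among MG. The end peak of BMDM 1 exceeded the mean log2 value of BMDM 2 and 3 by 1.37 in Fos, 1.66 in Fosb, 1.44 in Jun and 0.91 in Junb, where the median gene had 0.18. MG 1 exceeded the mean log2 value of MG 2 and 3 by 1.42 in Fos, 1.55 in Fosb, 1.60 in Jun and 1.05 in Junb, where the median gene had 0.28. The genes behind these medians were not matched to the AP-1 genes in peak height or width. Over 23 other immediate-early and serum response genes, many of which tissue dissociation is known to induce, summed counts were likewise highest in library 1. Elk1, Nr4a1 and Dnajb1 of that list were instead lowest in MG 1 among MG. The sums were 82903, 66690 and 42153 in BMDM and 93532, 55054 and 60980 in MG. The sum over 6 pan-myeloid markers had the same order, with 12811, 10224 and 7310 in BMDM and 13803, 6327 and 8217 in MG. The labels do not say that a library number marks a shared day or batch, and the part of handling in these values was not tested.

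**Figure D5:**
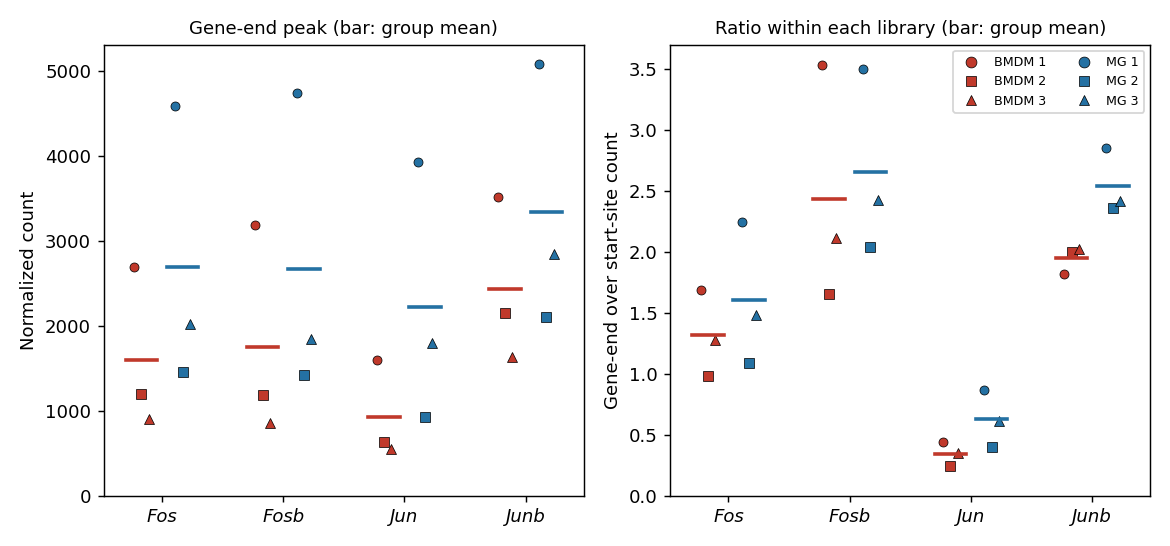
Left, normalized count of the gene-end peak, and right, its ratio to the start-site peak of the same library, for Fos, Fosb, Jun and Junb (x axis), with 1 point for each BMDM library (red, left) and MG library (blue, right) and a bar at the group mean. BMDM 1 and MG 1 hold the highest end peak of their group in all 4 genes, and only for Junb do the ratios separate, at 1.82 to 2.02 in BMDM and 2.36 to 2.85 in MG.

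MG 1 also parted from MG 2 and 3 at some AP-1 sites away from the ends, as it did over the whole table. At 17 of the 108 tested peaks (15.7%) MG 2 was at least 3-fold above MG 1, against 20.4% of all tested peaks, a limit chosen after the values were seen. Among them were both Batf2 peaks, and at the Batf2 start the counts were 139, 203 and 97.8 in BMDM and 56.3, 284 and 150 in MG. At Jun -133 kb the counts were 7.93, 13.6 and 19.9 in BMDM and 3.97, 137.2 and 53.5 in MG. Without MG 1, 15 AP-1 peaks were higher in BMDM, all 7 above among them, and 7 were higher in MG (limma adjusted p under 0.05), which is 6.48% of them beside 12.7% of all peaks. Those 7 belonged to Jun (4), Fos, Batf and Batf3 (1 each). That fit draws nearly all of its variance from other peaks.

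Markers of the oligodendrocyte lineage in the neural and glial list were high in the same libraries. Olig1 held 182.5, 211 and 312 normalized counts in BMDM and 269, 3587 and 1783 in MG, and Olig2, Sox10 and Sox2 were likewise highest in MG 2, while Mbp, Rbfox3 and Snap25 were highest among MG in MG 1. Summed over the list, counts were 5072, 5120 and 4058 in BMDM and 5188, 10838 and 6988 in MG, and 4 of 8 tested genes (Olig1, Sox10, Sox2 and Snap25) were higher in MG, while Aqp4 and Sox9 had no peak within 100 kb. Of 7 tested neutrophil markers 0 passed (5 at an unadjusted limma p under 0.05, all higher in BMDM), with sums of 1447 to 2342 in BMDM and 1165 to 1554 in MG, and Elane and Retnlg had no peak. Among 8 tested dendritic markers 0 passed (2 unadjusted), with sums of 4312 to 6080 in BMDM and 4100 to 5700 in MG. For lymphocytes 1 of 7 passed, Nkg7, higher in BMDM, with sums of 2717 to 4707 in BMDM and 3645 to 4961 in MG. At an unadjusted limma p under 0.05, 3 were higher in BMDM and 0 in MG. Klrb1c alone held 1719 to 3074 of these counts in BMDM and 2857 to 3971 in MG, so the sums mostly follow that gene. The endothelial list had Erg higher in BMDM and Cldn5 higher in MG among 10 genes, with sums of 5212 to 7242 in BMDM and 5840 to 6784 in MG. The part of other cells in the AP-1 values was not tested.

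The lists of pathway genes around AP-1 gave few calls by gene sum. Their unadjusted counts stand beside 1138 genes higher in BMDM and 2854 higher in MG among all 18246 tested. Among kinases that act upstream, 0 of 19 tested MAP kinases and their activators passed in either direction (1 at an unadjusted limma p under 0.05), with a median relative difference of 0.15. The nearest was Mapk11, the beta form of p38, with 194 ± 52.8 normalized counts in BMDM and 364 ± 32.0 in MG (± SD over 3 libraries; -0.66, adjusted p = 0.0710). Of 10 MAP kinase phosphatases 1 was lower in BMDM and 0 were higher, with a median of 0.16. This was Dusp8, whose product acts on JNK and p38, with 579, 590 and 386 counts in BMDM and 1505, 1132 and 1059 in MG. Its lowest MG library was well above its highest BMDM library (-0.99 ± 0.29, SE; adjusted p = 0.0198). The next were Dusp5 (0.78, adjusted p = 0.395) and Dusp2 (0.75, adjusted p = 0.427). Dusp1, itself an immediate-early gene, averaged 9423 ± 4188 in BMDM and 8021 ± 3943 in MG (0.52, adjusted p = 0.809).

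Among 8 other zipper proteins that pair with FOS or JUN, 0 passed (0 unadjusted), and the median was 0.05, with Jdp2 at 0.35 and Atf3 at 0.34. Among 23 other immediate-early and serum response genes 0 passed (2 at an unadjusted limma p under 0.05, both lower in BMDM), with a median of 0.18. Of 8 factors that bind DNA beside BATF or AP-1 0 passed (0 unadjusted), with a median of 0.33. In that list Runx3, a runt-domain factor, had 8931, 8787 and 5268 normalized counts in BMDM and 4650, 3803 and 3901 in MG. The groups did not overlap, an order whose share over all genes was not counted, and the difference did not pass (1.13 ± 0.41, SE; adjusted p = 0.231). Irf4 had 1118 ± 207 in BMDM and 882 ± 52.1 in MG (± SD over 3 libraries; 0.60, adjusted p = 0.520).

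Genes known as AP-1 targets had the highest median of these pathway lists, 0.65 over 19 tested genes, of which 1 was higher in BMDM and 0 were higher in MG (4 and 0 at an unadjusted limma p under 0.05). The one past the threshold was Mmp13, a collagenase gene with an AP-1 site in its promoter, with 357, 206 and 139 normalized counts in BMDM and 53.9, 74.3 and 60.3 in MG (2.06 ± 0.37, SE; adjusted p = 0.0122). Mmp12, the elastase gene of macrophages, had 454, 351 and 172 in BMDM and 183, 185 and 125 in MG, with overlapping groups (1.16, adjusted p = 0.148). Plaur, the urokinase receptor gene, had 1912, 1880 and 978 in BMDM and 807, 950 and 786 in MG (1.12, adjusted p = 0.123). Cd44, a receptor for hyaluronan, had 7163, 6333 and 3275 in BMDM and 3195, 3226 and 2395 in MG (1.13, adjusted p = 0.215). Of these 4 genes, Mmp13, Plaur and Cd44 had groups that did not overlap. For Plaur and Cd44 the gap was narrow, with 978 and 3275 in the lowest BMDM library and 950 and 3226 in the highest MG library. The share of all genes with such groups was not counted.

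The 6 deposited peak lists, called per library, covered between 33.3% and 73.0% of the 111 AP-1 peaks in BMDM (58, 81 and 37 peaks in BMDM 1, 2 and 3) and between 61.3% and 72.1% in MG (68, 80 and 71 in MG 1, 2 and 3), with any overlap of at least 1 base counted. The same lists covered 34.5%, 55% and 18.1% of 4000 randomly drawn table peaks in BMDM and 51.7%, 72.8% and 53.8% in MG. Coverage was lowest in BMDM 3, the library with the fewest reads. Of the 111 peaks 34 were in all 6 lists and 6 in none, and each of the 10 genes had at least 1 peak in all 6 lists.

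By pattern over the 6 libraries, the genes most like Fos in log2 gene sum were Epc1 (Pearson r = 0.999) and Setdb2 (r = 0.999). For Jun they were Pnpla8 and Impdh2, for Junb Smad2 and Golga5, for Fosl2 Kdm5c and Cyb5d2, and for Batf Mpeg1 and Smim20. These values describe the same 6 libraries, whose depth ranged widely, over 8482 genes compared. Of those genes 1568 correlated with Fos above 0.95, and 25 did with Batf2, whose nearest were S100a3 (r = 0.992) and Cpne2 (r = 0.988).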

How the data were processed

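ATAC-seq was measured in 3 BMDM and 3 MG libraries, grouped and numbered by the labels. The submitters' processing notes name build mm10, DESeq2 (1.36.0), ChIPseeker (1.32.1), the peak caller MACS2 (2.1.1.20160309), the aligner Bowtie2 (2.4.1) and cutadapt (1.8.1). How they were set, and whether reads were shifted for the transposase or duplicates removed, is not given in the sources used here. In the deposited table stand variance-stabilized log2 values per library, the authors' mean normalized signal, log2 fold changes, a test score, p-values and adjusted p-values. The deposited peak lists hold a score, a fold enrichment over local background and −log10 p and q per peak, called by the authors per library on paired-end fragments, per the file headers.

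Of 93084 lines 155 repeated a peak and 65 had no annotation. A further 8 per-sample columns could be matched to no sample and were left unused. Inverting the stabilization gave normalized counts that matched the deposited mean within 2.4e-06 of its value and whole reads (within 0.02 read) for 100% of peaks. Features with a mean of at least 10 were tested with limma-trend (limma 3.58.1, R 4.3.3) on log2(normalized count + 1), a scale that understates changes of low peaks. Counts were tested per peak, per gene (peaks within 100 kb) and per promoter. At promoters, the variance shared across features took nearly all the weight. The limit that 3 counts allow was 1.64 to 5.95 normalized counts by library and covers counting error only, since PCR reads are not independent molecules. The test was checked on simulated data. The members, lists and named peaks were chosen with earlier results of these data known. Named peaks are those nearest the start, of highest mean, of smallest p and past the threshold, and other pathway genes named are those past the threshold or among the 4 of a list with the largest differences; further ones are named as chosen after their values were seen or from the authors' table.

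Alternatives were library totals, cyclic loess, TMM factors, pseudocounts of 0.5 and 5, no filter or a mean of at least 30, voom, robust moderation, a replicate block, leaving out each library, leaving out MG 2 and 3, and other windows.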

Additional observations from a re-analysis of the deposited data

How the results depend on the processing

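Of 7 AP-1 peaks higher in BMDM, a mean of at least 30 left 4 and voom 0 (19 at an unadjusted p under 0.05; smallest adjusted p 0.0505), while a replicate block gave 12 and leaving out MG 2 and 3 gave 16. Leaving out 1 library gave between 0 and 15. The counts follow the whole table, which had 0% of peaks higher in BMDM without BMDM 1, BMDM 2 or MG 3 and with voom, 10.5% with the block, and 11.98% without MG 1. The 7 differences kept their direction throughout, from 1.52 to 3.45. Higher in MG, the count of 0 became 2 with the block and in the authors' deposited table, and lay between 0 and 7 when 1 library was left out, with 7 without MG 1. Gene sums higher in MG went to 2 with cyclic loess. Promoters higher in BMDM went to 1 with library totals and with cyclic loess, and those higher in MG to 2 with cyclic loess. Causes were not tested. Same-numbered libraries deviated together for numbers 1 and 3 (r = 0.546 and 0.451) and not for 2 (r = -0.163) over all peaks, so the numbers were not taken to pair the libraries. Over the AP-1 peaks alone the values were 0.710, 0.869 and 0.124 for numbers 1, 2 and 3. Without MG 1, or without MG 2 and 3, the shared variance took nearly all the weight, and where MG 1 alone remained it was assumed to vary like the BMDM libraries. No value past the threshold reversed. Of the values for single peaks, genes and promoters, 754 kept their side of the threshold, 37 lost it, 9 passed it and 11 moved. Of these 811 values 60 changed sign, none of them past the threshold. Low peaks are limited most in BMDM 1 and BMDM 3, where 3 counts stand for 5.95 and 5.43 normalized counts. Coverage by the peak lists changed little with stricter calls.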
